A study of Homo sapiens with 6 samples.

Results

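The long noncoding snoRNA host genes number 28 in the deposited gene table, out of 47102 gene names in all. They were chosen by name: the numbered SNHG genes together with GAS5, ZFAS1 and EPB41L4A-AS1, where a row naming several genes counted if 1 of them was a host. Of the 28, 9 stood alone in their row, 14 stood with small RNAs (small nucleolar RNAs, Cajal body RNAs or entries of an RNA family database), and 5 shared a row with another gene and are reported apart. At a mean of at least 1 FPKM (fragments per kilobase of transcript, scaled to library size) over the 6 libraries, 23 members were tested, 18 in a row of their own and 5 in a shared row.

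The study measured mRNA by sequencing in cells labelled U-937, a line from a histiocytic lymphoma used as a model of monocytes (the labels call it an acute myeloid leukemia cell), in which FOXO3 (also called FOXO3A) was to be removed with small guide RNAs. There were 3 control libraries labelled WT and 3 libraries labelled FOXO3A knock-out. All of them grew in RPMI medium with serum, and no treatment other than the knockout is given. Whether a group's libraries stem from separate cultures or from 1 clone is not stated, so the p-values reflect the spread between these libraries alone, and that spread may be technical. In bulk RNA, fewer cells of a type and less RNA per cell cannot be told apart.

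A snoRNA host gene is transcribed and spliced like an mRNA, and the small RNAs are cut out of its introns. Box C/D snoRNAs (named SNORD) guide 2′-O-methylation of ribosomal RNA, box H/ACA snoRNAs (SNORA) guide pseudouridylation, and scaRNAs do the same for spliceosomal RNAs in Cajal bodies. The spliced host RNA that remains codes for little or no protein. Many of these RNAs begin with a terminal oligopyrimidine (TOP) tract, the feature that couples ribosomal protein mRNAs to growth signals, and several, GAS5 first among them, are degraded by nonsense-mediated decay while ribosomes translate them. The libraries were made with an mRNA kit, which is aimed at the spliced host RNA and not at the snoRNA.

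Facts that bear on the whole comparison were these. FOXO3 mRNA stood at 4.22, 3.63 and 4.27 FPKM in control and at 3.93, 4.13 and 3.45 FPKM in knockout libraries, so the groups overlapped (limma's adjusted p = 0.732), and the row covers the whole gene and not the edited site. All 10 markers of the T lineage were at 1 FPKM or more, and their summed level was 615 to 695 FPKM in control and 693 to 752 FPKM in knockout libraries. TRAT1 and CD2 rose among these 10. Of 13 monocyte and myeloid markers in a row of their own, 12 were below 1 FPKM, with FCGR1A, MPEG1, S100A8 and ELANE below 0.01 FPKM in every library, and the list summed to 2.19 to 2.88 and 3.02 to 3.55 FPKM. These markers go against the label, so the cells are called here by their libraries' names; the part that the T lineage difference plays in the results was not tested. On the first principal component the controls lay at −3.71, −31.3 and −13.6 in order of their numbers, so the second lay farthest out. The knockout libraries lay at 18.4, 19.4 and 10.8. The first control had a mean correlation of 0.971 with the other controls and 0.969 with the knockout libraries. Depth, read from the steps between low values, was 4.26 to 5.71 gigabases of aligned sequence.

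Annotated starts are shown for the hosts that fell, SNHG5 and SNHG8, and for SNHG29, SNHG19, ZFAS1, GAS5 and SNHG12, the lower hosts with the next smallest adjusted p, so that their pyrimidine runs, or the lack of one, can be read. Runs of this kind were also found in SNHG16, and in SNHG17, SNHG7 and SNHG11, which were higher in mean, so they do not set the lower hosts apart. Each window runs from 30 bases before the RefSeq start to 39 after it (GRCh38.p14), 5′ to 3′ on the strand of the gene. Capitals mark the longest stretch of a C followed by at least 4 C or T between 10 bases before and 15 after the start. In SNHG29 this stretch is the end of a longer pyrimidine run that begins before that window, in SNHG19 a shorter stretch just before the start is left in lower case, and GAS5 holds none around this RefSeq start.
SNHG5: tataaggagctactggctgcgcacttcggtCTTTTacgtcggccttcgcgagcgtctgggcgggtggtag
SNHG8: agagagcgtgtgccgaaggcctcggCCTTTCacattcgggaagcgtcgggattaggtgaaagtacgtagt
SNHG19: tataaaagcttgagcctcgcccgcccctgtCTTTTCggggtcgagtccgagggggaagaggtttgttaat
SNHG29: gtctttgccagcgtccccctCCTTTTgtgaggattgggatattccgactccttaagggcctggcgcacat
GAS5: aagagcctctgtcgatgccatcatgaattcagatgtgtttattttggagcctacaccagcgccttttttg
ZFAS1: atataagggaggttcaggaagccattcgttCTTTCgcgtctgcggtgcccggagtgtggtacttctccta
SNHG12: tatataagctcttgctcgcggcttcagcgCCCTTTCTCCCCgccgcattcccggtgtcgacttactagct

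The windows lie at chr6:85678694-85678763 (minus strand) for SNHG5, chr4:118278732-118278801 (plus) for SNHG8, chr16:2155319-2155388 (minus) for SNHG19, chr17:16438957-16439026 (plus) for SNHG29, chr20:49278612-49278681 (plus) for ZFAS1, chr1:173869006-173869075 (minus) for GAS5 and chr1:28581834-28581903 (minus) for SNHG12. Of the 18 hosts in a row of their own, 14 were matched to the RefSeq promoter table; SNHG15, SNHG6, SNHG9 and SNHG25 were not used here for sequence. On the sense strand, a C at the annotated start itself followed by at least 4 C or T was found in 4 of the 14 hosts (SNHG5, SNHG19, ZFAS1 and SNHG12), against 4.04% of 27305 promoters in the table and 38 of 60 ribosomal protein genes. In the wider window from 10 bases before to 15 after the start, 10 of the 14 held such a run, against 34.3% of all promoters and 52 of the 60 ribosomal protein genes. The forkhead motif TGTTTAC, sought on both strands over 250 bases before and 50 after the start, was in 0 of the 14 windows and in 3.41% of all promoters. The E-box CACGTG was in 1 of the 14, that of SNHG7, and in 7.43% of all promoters. A match of letters is a description of the window and not a binding site.

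Host RNA levels spanned a wide range. Among the 18 hosts in a row of their own, the mean over all libraries ran from 1.94 FPKM (SNHG11) to 67.3 FPKM (SNHG29), a span of 34.8-fold, and the 3 highest, SNHG29, SNHG6 and SNHG19, made up 49.1% of the summed level. FPKM is scaled to transcript length, so levels may be compared between genes, although short transcripts make length corrections less sure. The median length was 672 bases, against 921 over all tested names. It is taken over all transcripts of a row, and 13 of the 18 rows also hold small RNAs, so it is not the spliced length of the hosts alone. In the order of control means, SNHG29 and SNHG6 overlapped in their control libraries, as did ZFAS1, SNHG8 and SNHG5 as neighbours, SNHG15 with SNHG7, SNHG7 with SNHG10, and EPB41L4A-AS1, SNHG9 and SNHG25 as neighbours. SNHG19 lay below SNHG6 and above ZFAS1 without overlap in the controls. The summed level of the 18 hosts was 365, 397 and 394 FPKM in the control libraries and 322, 315 and 332 FPKM in knockout libraries.

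**Figure D1:**
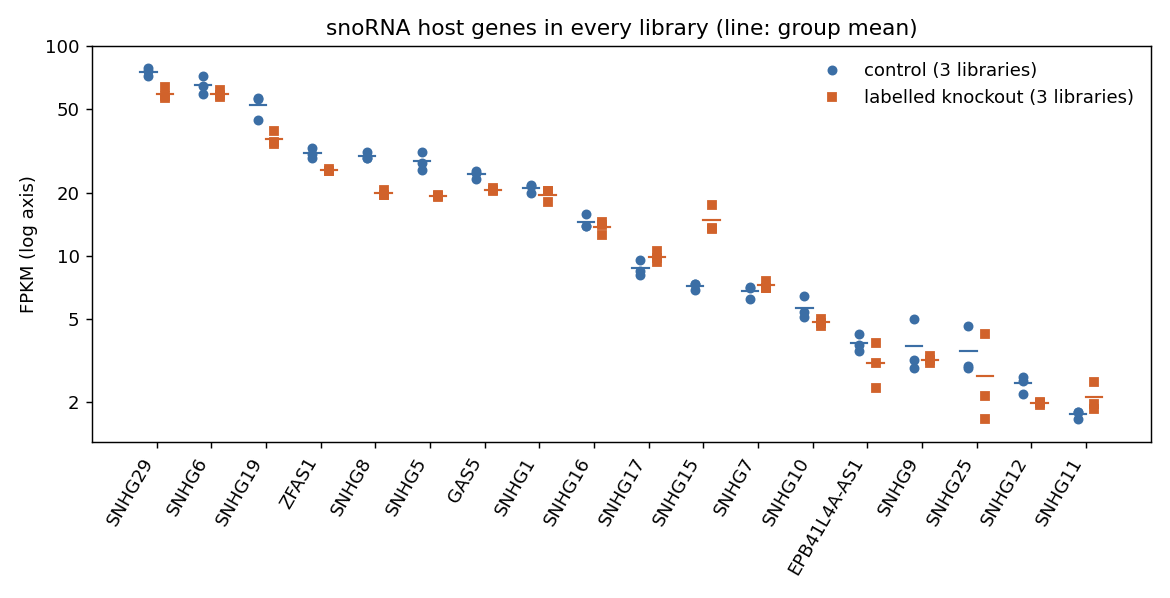
FPKM of the 18 snoRNA host genes in a row of their own, on a log axis, with 1 point per library, control libraries in blue and knockout libraries in orange, and a line at each group mean. SNHG15 is the host whose knockout points lie farthest above its control points, at 13.5 to 17.5 against 6.85 to 7.32 FPKM, while SNHG8 and SNHG5 lie below theirs without overlap.

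The study's title asks what depletion of FOXO3A does to gene expression; since FOXO3 mRNA overlapped between the groups, the differences below are between the labelled groups. SNHG15 rose about 2.08-fold in mean FPKM, SNHG8 fell to 0.665 and SNHG5 to 0.686 of the control mean, and the other 20 tested members did not pass the threshold. These 3 of 23 members (13%) stand against 2.68% of all 11162 names tested (154 names or 1.38% higher and 145 or 1.3% lower, a split that was 170 and 259 with upper-quartile scaling). At an unadjusted p below 0.05 stood 9 of the 23 members, 7 lower and 2 higher, against 25.7% of all names (10.7% lower and 14.9% higher). The rises and falls here are from limma on log2(FPKM + 1), adjusted over all tested names at 0.05. The members as a group lay lower: 17 of 23 were lower in the knockout libraries, and among the hosts in a row of their own 14 of 18 (77.8%) were lower, against 46.6% of all tested names. The median log2 fold change of these 18 was −0.20, against 0.02 over all tested names. The groups did not overlap in 11 of the 23 members, of which 9 were lower and 2 higher, against 32.3% of all names (14.7% lower and 17.7% higher). Each of these 11 had p = 0.1 in a two-sided exact permutation test, the smallest value that 3 against 3 libraries allow.

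SNHG15, the host of SNORA9 and a short-lived RNA, lies on chromosome 7 from 44983023 to 44986961 on the minus strand (GRCh38). It was at 6.85, 7.31 and 7.32 FPKM in control libraries and reached 13.5, 13.6 and 17.5 FPKM in knockout libraries. The controls lay close together, and the third knockout library was the highest. The means were 7.16 ± 0.272 and 14.9 ± 2.29 FPKM (SD, n = 3), or 0.95 on the log2(FPKM + 1) scale (SE 0.11, 95% interval 0.68 to 1.22, limma's adjusted p = 0.0159). Leaving out the second control gave an adjusted p of 0.0506, leaving out the third gave 0.0593, leaving out the second knockout library gave 0.0512, and dropping the filter on low values gave 0.0939, with a log2 fold change of 0.83 to 1.05 over all alternatives.

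SNHG8, the host of the H/ACA snoRNA SNORA24, spans bases 118278709 to 118279823 of chromosome 4 (plus strand). It was at 29.1, 31.3 and 29.1 FPKM in control and at 19.4, 19.5 and 20.6 FPKM in knockout libraries. Both groups were tight, with a wide gap between them. The means were 29.8 ± 1.27 and 19.8 ± 0.647 FPKM (SD, n = 3), and the log2 fold change came to −0.57 (SE 0.06, 95% interval −0.72 to −0.41, limma's adjusted p = 0.0121). It kept its call without the first or the second control, and lost it without the third control (0.0505) and without each of the knockout libraries (0.0664, 0.0755 and 0.0509 in order of their numbers). The pyrimidine run of its window began 5 bases before the annotated start.

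SNHG5 carries SNORD50A and SNORD50B in its introns and is known from the breakpoint of a lymphoma translocation. It lies on chromosome 6, on the minus strand. It was at 25.6, 31.1 and 27.8 FPKM in control and at 19.4, 19.2 and 19.3 FPKM in knockout libraries. The knockout libraries were nearly equal, and the second control was the highest. The means were 28.1 ± 2.78 and 19.3 ± 0.143 FPKM (SD, n = 3), with a log2 fold change of −0.52 (SE 0.08, 95% interval −0.72 to −0.32, limma's adjusted p = 0.0335). Leaving out any library but the first control ended the call, with adjusted p of 0.0586 and 0.102 for the second and the third control and 0.118, 0.138 and 0.0992 for the knockout libraries in order of their numbers, and so did dropping the filter on low values (0.140).

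**Figure D2:**
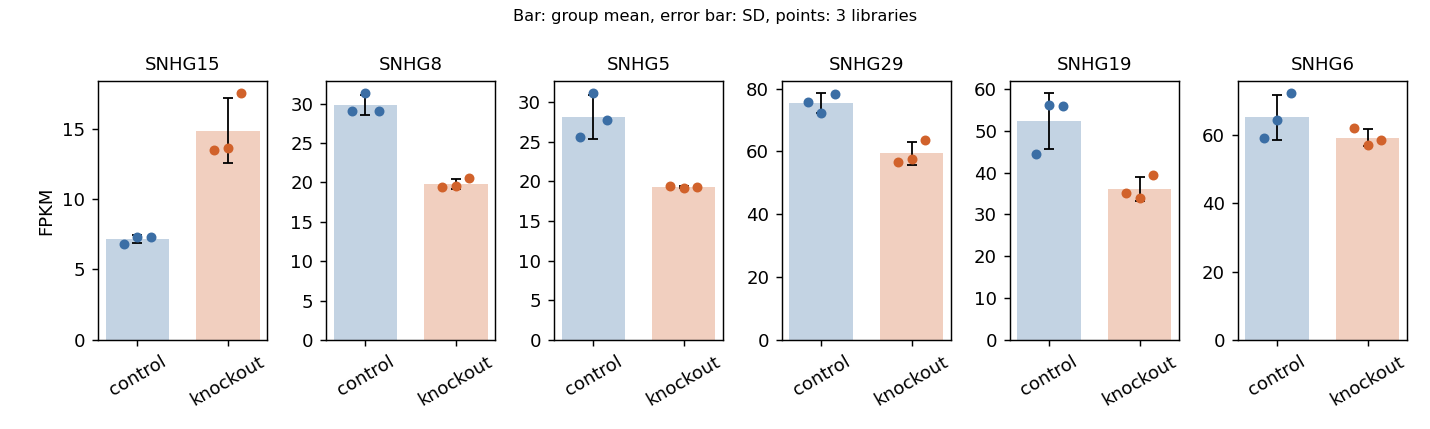
FPKM of SNHG15, SNHG8, SNHG5, SNHG29, SNHG19 and SNHG6 by group, with bars for the mean, error bars for the SD and 1 point per library (axes start at 0). SNHG15 rose, SNHG8 and SNHG5 fell, SNHG29 and SNHG19 were lower without overlap but short of the threshold, and the groups overlapped for SNHG6.

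The remaining hosts of C/D snoRNAs were lower in mean, and none of them passed the threshold. In GENCODE, SNHG29, ZFAS1, GAS5, SNHG6, SNHG16, SNHG12, SNHG7, SNHG10 and EPB41L4A-AS1 overlap a gene on the opposite strand, and without stated strand use the reads of such pairs cannot be told apart. SNHG29, annotated in GENCODE as LRRC75A-AS1 and the host of SNORD49A, SNORD49B and SNORD65, was at 75.6, 72.2 and 78.4 FPKM in control and 56.8, 57.7 and 63.5 FPKM in knockout libraries. Its groups did not overlap, with a log2 fold change of −0.34 (SE 0.07, limma's adjusted p = 0.0547), and it passed the threshold under a minimum mean of 5 FPKM (0.0468) and under upper-quartile scaling (0.0440). SNHG19, the host of SNORD60, was at 44.5, 56.2 and 55.9 against 35.0, 33.9 and 39.3 FPKM (log2 fold change −0.52, SE 0.11, adjusted p = 0.0611). The first control was its lowest control, and without that library the adjusted p was 0.0281.

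ZFAS1, which starts within its antisense neighbour ZNFX1 and holds the SNORD12 copies, was at 29.2, 32.7 and 30.4 FPKM in control and 25.4, 25.5 and 26.0 FPKM in knockout libraries (log2 fold change −0.25, SE 0.06, limma's adjusted p = 0.0829). GAS5, named for its accumulation in growth arrest and the host of 10 C/D snoRNAs and 1 H/ACA snoRNA in RefSeq, was at 24.8, 25.3 and 23.2 against 21.1, 20.3 and 20.5 FPKM (log2 fold change −0.23, SE 0.06, adjusted p = 0.0891). Neither pair of groups overlapped, and the lower values lay in the knockout libraries. GAS5 passed the threshold once the dependence on GC content and transcript length was removed (0.0430). SNHG6, the host of SNORD87, was at 59.0, 64.5 and 72.2 against 62.0, 57.1 and 58.5 FPKM (adjusted p = 0.374), and its groups overlapped.

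SNHG1, the host of SNORD22 and of 7 further C/D snoRNAs in RefSeq, was at 21.8, 21.5 and 19.8 against 20.3, 20.3 and 17.9 FPKM (limma's adjusted p = 0.429). SNHG16, the host of SNORD1A, SNORD1B and SNORD1C, was at 13.9, 15.9 and 13.9 against 12.6, 14.5 and 13.98 FPKM (adjusted p = 0.586). Both overlapped between the groups. The row of SNHG25 also names 2 small RNAs, and its 4 listed transcripts, theirs included, have a median length of 134 bases. SNHG25 varied most: 4.62, 2.995 and 2.91 FPKM in control and 4.22, 1.67 and 2.14 FPKM in knockout libraries (log2 fold change −0.34, SE 0.28, adjusted p = 0.480). SNHG12, the host of 3 H/ACA snoRNAs and SNORD99, was at 2.20, 2.54 and 2.65 against 1.95, 1.98 and 2.01 FPKM without overlap (adjusted p = 0.181).

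The hosts of H/ACA snoRNAs other than SNHG15 and SNHG8 lay on both sides of 0 and none passed the threshold. SNHG17, the host of SNORA71A to SNORA71D, was at 8.46, 9.55 and 8.13 FPKM in control and 9.31, 9.70 and 10.5 FPKM in knockout libraries (limma's adjusted p = 0.296). SNHG7, the host of SNORA17A and SNORA17B, was at 6.20, 6.98 and 7.11 against 7.02, 7.04 and 7.62 FPKM (0.545). Both overlapped between the groups.

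SNHG11, the host of SNORA60 and SNORA71E, was at 1.66, 1.81 and 1.80 against 1.86, 1.98 and 2.50 FPKM, without overlap (limma's adjusted p = 0.341). EPB41L4A-AS1, the host of SNORA13, was at 3.52, 4.24 and 3.75 against 3.85, 3.08 and 2.35 FPKM (0.329), and SNHG9, the host of SNORA78, at 2.91, 5.02 and 3.20 against 3.34, 3.09 and 3.18 FPKM (0.635). The last 2 overlapped, and SNHG9 changed its sign without the second control, its highest library. SNHG10, the host of the Cajal body RNA SCARNA13, was at 5.08, 5.41 and 6.42 against 4.79, 5.02 and 4.65 FPKM without overlap (0.280).

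**Figure D3:**
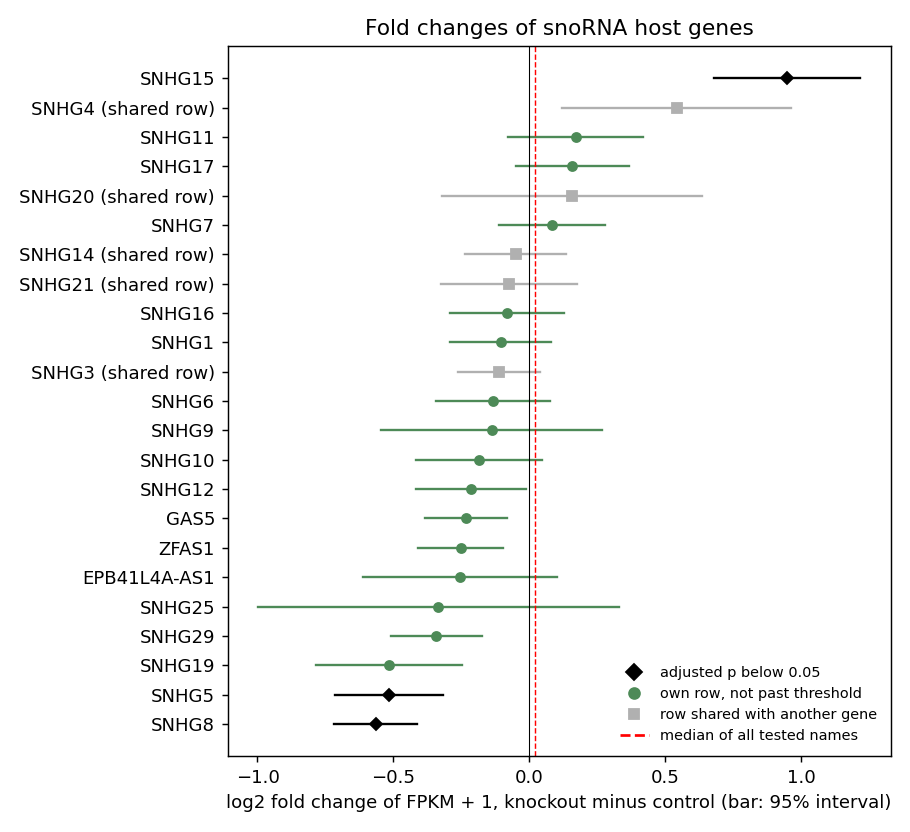
Log2 fold change of FPKM + 1, knockout minus control, of the 23 tested members with 95% intervals. Black diamonds mark adjusted p below 0.05 (SNHG15 higher, SNHG5 and SNHG8 lower), grey squares mark rows shared with another gene, and the dashed line is the median of all tested names, 0.02.

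Grouped by the small RNAs that RefSeq places inside each gene, the 8 hosts with C/D snoRNAs only were lower in 8 of 8, with a median log2 fold change of −0.29. The 7 hosts with H/ACA snoRNAs only were lower in 3 of 7, with a median of 0.08, and held both extremes, SNHG15 and SNHG8. Over all tested names, 46.6% were lower. The 2 hosts of both kinds, GAS5 and SNHG12, were lower, and so was SNHG10, which holds only a scaRNA (log2 fold change −0.18). This grouping was made after the values were seen and has no test, and the file itself names an H/ACA RNA, SNORA50C, in the row of SNHG25.

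**Figure D4:**
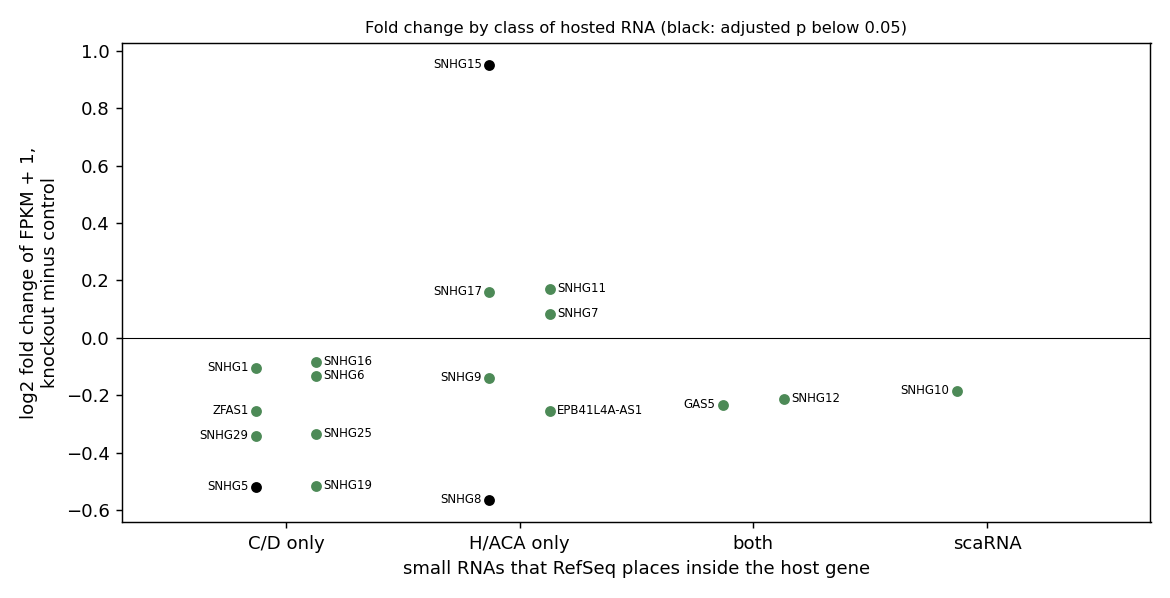
Log2 fold change of FPKM + 1, knockout minus control, of the 18 hosts in a row of their own, by the class of small RNA that RefSeq places inside them, with 1 point per gene. The C/D column lies below 0 throughout, and the H/ACA column runs from −0.57 (SNHG8) to 0.95 (SNHG15).

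GC content was set beside these values because the log2 fold change of all tested names followed it (Spearman rho −0.391 across 11113 names, which are not independent). The rows of the 18 hosts, with any small RNAs in them, had a median GC content of 49.7%, against 49.2% over all tested names. Among these hosts rho was 0.278, across genes that share the same 6 libraries. With the trend in length and GC removed, 13 of the 18 were lower, and SNHG15, SNHG8 and SNHG5 remained past the threshold, with adjusted p of 0.00558, 0.0114 and 0.0302. When the second control was also left out, SNHG15 and SNHG8 passed it (0.0258 and 0.0379) and SNHG5 did not (0.0553).

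The 5 shared rows cannot be split between their genes, and none passed the threshold (1 had an unadjusted p below 0.05, against 25.7% of all names). The row of SNHG4 is shared with MATR3, which encodes the nuclear matrix protein matrin 3, and lists 48 transcripts. It was at 22.4, 15.2 and 14.5 FPKM in control and 26.9, 27.2 and 22.1 FPKM in knockout libraries (log2 fold change 0.54, SE 0.18, limma's adjusted p = 0.124). The first control overlapped the knockout libraries, and without it the adjusted p was 0.0314.

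The row of SNHG3 is shared with RCC1, the exchange factor of the GTPase Ran, and was at 31.8, 34.4 and 34.3 against 31.1, 30.01 and 31.8 FPKM (limma's adjusted p = 0.314), with a very small gap between the groups. That of SNHG14, shared with SNURF and SNRPN of the imprinted Prader-Willi region, was at 2.38, 2.30 and 2.48 against 2.28, 2.39 and 2.14 FPKM (0.717). The groups of SNHG14 overlapped. The row of SNHG20, shared with SEC14L1, was at 4.61, 2.30 and 2.71 against 3.78, 3.32 and 3.61 FPKM (0.649), and that of SNHG21, shared with the clone-named gene AC105339, at 2.12, 1.60 and 1.90 against 1.52, 1.85 and 1.81 FPKM (0.676). Both overlapped between the groups.

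The 5 members under the filter were SNHG26, at 0.296 to 0.443 FPKM over the 6 libraries, SNHG22, at up to 0.0655 FPKM, and SNHG27, SNHG18 and SNHG28, listed at the floor value of 0.0001 in every library. RefSeq places no snoRNA or scaRNA inside SNHG27 or SNHG28, which were taken in by name.

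Neighbours whose start lies within 1000 bases on the opposite strand were taken from GENCODE, and 5 such rows were tested. Of these, 0 passed the threshold and 1 had an unadjusted p below 0.05, against 25.7% of all names. That one was TRAF7, a signalling adaptor whose start lies 340 bases from that of SNHG19. TRAF7 was at 29.02 ± 1.47 and 24.0 ± 1.57 FPKM (SD, n = 3; log2 fold change −0.26, SE 0.07, limma's adjusted p = 0.0973). ZNFX1, whose start lies 248 bases from that of ZFAS1, was at 6.16 ± 0.979 and 6.20 ± 0.337 FPKM (0.948). SLC3A2, the heavy chain of amino acid transporters, starts 188 bases from SNHG1 and was at 24.6 ± 2.18 and 23.8 ± 1.56 FPKM (0.768). The row of RPS2, a ribosomal protein gene 99 bases from SNHG9, was at 493 ± 45.8 and 477 ± 22.8 FPKM (0.772). That of ACAA2, 63 bases from SNHG22, was at 3.86 ± 0.254 and 3.86 ± 0.130 FPKM (0.994, with SD and n = 3 throughout). The RPS2 row also names AC005363 and the ACAA2 row MYO5B and AC090227, so neither can be split between its genes.

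The proteins that bind and assemble snoRNAs did not pass the threshold. None of 7 tested core proteins was called by limma, and the median log2 fold change was −0.02. An unadjusted p below 0.05 was found for 1 of the 7, against 25.7% of all names. NOP58, a core C/D protein that is also a host, was at 39.8, 32.7 and 30.6 against 52.6, 53.0 and 41.7 FPKM (limma's adjusted p = 0.0890). The pseudouridine synthase DKC1 was at 41.5 ± 1.73 and 40.0 ± 2.64 FPKM (0.674), and its H/ACA partners GAR1 at 43.8 ± 2.99 and 48.1 ± 2.50 FPKM (0.317) and NHP2 at 76.5 ± 11.8 and 69.5 ± 11.99 FPKM (0.611; SD, n = 3). The groups did not overlap for NOP58 and overlapped for the others of these 4. FBL stood in a row shared with DYRK1B and so was not among the 7. That row had a log2 fold change of −0.06 (limma's adjusted p = 0.723).

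Among 13 tested assembly factors 0 were called by limma, with a median log2 fold change of 0.06. At an unadjusted p below 0.05, 3 of the 13 were higher, against 14.9% of all names. ZNHIT6, a C/D assembly factor, was at 7.42, 5.41 and 9.71 against 15.6, 15.9 and 14.1 FPKM (log2 fold change 0.96, SE 0.18, limma's adjusted p = 0.0521). RPAP3, a subunit of the R2TP chaperone complex, was at 7.65 ± 1.36 and 12.1 ± 1.86 FPKM (0.0792), PHAX, an export adaptor that also carries snoRNAs, at 7.77 ± 0.829 and 10.4 ± 0.799 FPKM (0.0835), and RUVBL2 at 71.1 ± 7.32 and 60.9 ± 4.44 FPKM (0.218; SD, n = 3). ZNHIT6, RPAP3 and PHAX were higher in each knockout library than in any control library. In all, 4 of the 13 had groups without overlap, against 32.3% of all names. NUFIP1 stood in a row shared with AL359706 and so was not among the 13. That row was higher without overlap (log2 fold change 0.52, limma's adjusted p = 0.0618).

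Nonsense-mediated decay factors had 0 of 18 tested genes called by limma, with a median log2 fold change of 0.08. At an unadjusted p below 0.05, 3 of the 18 were higher, against 14.9% of all names. UPF3B was at 8.29 ± 1.37 and 12.2 ± 1.79 FPKM (limma's adjusted p = 0.09996), UPF2 at 5.08 ± 1.63 and 7.91 ± 1.16 FPKM (0.145), the release factor ETF1 at 33.6 ± 2.98 and 39.0 ± 1.47 FPKM (0.169) and the exonuclease XRN1 at 1.29 ± 0.630 and 2.20 ± 0.379 FPKM (0.204; SD, n = 3).

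Protein-coding hosts were described next to the noncoding ones. Of 48 tested genes on a list of well-known hosts, mostly of ribosomal proteins and translation factors, 1 fell, 33 in all were lower and 15 higher, and their median log2 fold change was −0.10. The 1 call of 48 stands against 2.68% of all tested names, and the 33 lower genes against 46.6%. At an unadjusted p below 0.05 stood 16 lower and 9 higher genes of this list, against 10.7% and 14.9% of all names, and 26 of the 48 had groups without overlap, against 32.3%. EEF2, the elongation factor that drives translocation and the host of SNORD37, fell from 412, 453 and 474 to 312, 301 and 314 FPKM (log2 fold change −0.53, SE 0.07, limma's adjusted p = 0.0214), a call lost without any 1 library other than the first control (up to 0.111). RPL5, RPL3 and EIF4G2 came next, at 246 ± 18.7 and 189 ± 3.54 FPKM (0.0504), 324 ± 17.5 and 260 ± 7.54 FPKM (0.0546), and 108 ± 8.60 and 145 ± 9.10 FPKM (0.0538; SD, n = 3). Ribosomal protein genes have many near-identical pseudogene copies, so their values are uncertain.

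By annotation alone, 274 protein-coding genes in GENCODE hold a snoRNA on their strand, and 175 were tested in a row of their own. Of these, 2 rose and 1, EEF2, fell, together 1.71%, against 2.68% of all names. In all 88 of 175 were lower, against 46.6% of all names, and the median log2 fold change was −0.0027. At an unadjusted p below 0.05, 35 of the 175 were higher and 27 lower, against 14.9% and 10.7% of all names. Groups without overlap were found for 74 of the 175, against 32.3%. FHIT, a large gene at a fragile site, rose from 1.19 ± 0.184 to 2.68 ± 0.230 FPKM (limma's adjusted p = 0.0215), and EIF1AX, an initiation factor, from 21.5 ± 3.19 to 33.2 ± 1.42 FPKM (0.0450; SD, n = 3). Both lost the call without any 1 library other than the first control, at adjusted p of up to 0.0980 and 0.167. Among 13 TOP mRNAs of translation without a listed snoRNA, tested in a row of their own, 1 fell, against 1.3% of all names. In all 10 of the 13 were lower, against 46.6% (median log2 fold change −0.09). At an unadjusted p below 0.05, 1 of the 13 was lower, against 10.7% of all names. Groups without overlap were found for 1 of the 13, against 32.3%. The gene that fell was EEF1A1, from 1808, 1862 and 1752 FPKM to 1290, 1292 and 1369 FPKM, a change of −0.46 on the log2 scale (SE 0.06, limma's adjusted p = 0.0214). Its call was lost when the third control or 1 of the knockout libraries was left out (up to 0.126), and its sequence is shared with pseudogenes. EEF1G of the same list, in a row shared with TUT1 and AP002990 and so not among the 13, also fell (log2 fold change −0.50, limma's adjusted p = 0.0281). PABPC1, EIF3F and EEF1D, which did not pass, were at 210 ± 8.68 and 189 ± 12.1, 21.0 ± 1.55 and 18.4 ± 2.80, and 20.5 ± 0.996 and 18.9 ± 1.15 FPKM.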

How the data were processed

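The deposited values are FPKM, 1 column per library, per the file headers, with a floor of 0.0001. The submitters' processing notes list hg38, Cufflinks 2.1.1, HTSeq and Bowtie 0.12.9, without saying what each did. Strand use and the handling of shared reads are not stated. Identical rows (4865) were dropped and the rest summed per name. Names with a mean of at least 1 FPKM were tested on log2(FPKM + 1) with limma (version 3.58.1, under R 4.3.3), fitting group alone with a mean-variance trend and Benjamini-Hochberg adjustment; this scale understates changes of low genes. Only FPKM was given, so no count model was run. Depth was estimated from steps of FPKM times length in rows with 1 transcript: 73.8% to 80.9% of them were whole to within 0.1 step, read as 1 aligned base.

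Members and lists were chosen with earlier results of these data known. Every member with a mean of at least 1 FPKM was named, and of each list all genes past the threshold and up to 4 with the smallest p in a row of their own; that a row naming a gene and only small RNAs counts as that gene's own was decided after seeing the data. Coordinates and nested snoRNAs of coding genes came from GENCODE 29, those of the members from RefSeq. Alternatives covered the pseudocount, filter, scaling, trend, replicate block, row choice, length and GC trend, and each library left out. The limma script was tested on simulated data. The replicate numbers were not used as pairs.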

Additional observations from a re-analysis of the deposited data

How the results depend on the processing

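SNHG15, SNHG8 and SNHG5 kept their direction in all 18 alternatives, and were past the threshold in 13, 13 and 10 of them. The number of hosts called was 1 without the low-value filter and 0 with the replicate block, and 0 to 5 with each library left out (5 without the first control, 1 without the second control, the first or the third knockout library, 0 without the third control or the second knockout library). Calls among all names were 88 with no filter, 542 after quantile normalization, 27 with the replicate block, 513 with the GC and length trend taken out (310 higher and 203 lower), and 68 to 926 with a library left out (926 without the first control, 677 higher and 249 lower). Same-numbered libraries deviated together at correlations of 0.098, −0.039 and 0.016, and 2 of 6 correlated best with their own number. No shared deviation by number was seen, but these values cannot show whether the libraries were prepared in pairs.

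Listed protein-coding hosts had 4 calls at a minimum mean of 5 FPKM, 3 with upper-quartile scaling, 6 after quantile normalization, 2 with the highest row per name or the length and GC trend removed, 0 with no filter or the block, and 0 to 10 with a library left out. Annotated hosts had 7, 6, 11 and 5 under the minimum of 5 FPKM, upper-quartile scaling, quantile normalization and trend removal, 0 with no filter or the block, and 0 to 27 with a library left out. Assembly factors had 1 call under the minimum of 5 FPKM, upper-quartile scaling and quantile normalization, and 0 to 1 with a library left out, as had core proteins. Decay factors had 0 to 2, and TOP mRNAs 0 with no filter, 0 with the block and 0 to 1 with a library left out. The cause was not tested. Signs changed for SNHG9 (log2 fold change 0.085 after trend removal, 0.19 with the second control also left out, a choice made after seeing the data, and −0.26 to 0.052 with a library left out), DKC1 (0.0070 after trend removal), NHP2 (0.047 after trend removal without the second control) and the log2 fold change of FOXO3 (−0.12 to 0.000274 with a library left out). FPKM alone limits what low hosts such as SNHG11 and SNHG25 can show.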

Other observations

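Small RNAs have rows of their own in the table. Of 295 rows that name only snoRNAs or scaRNAs, 148 were at the floor in every library and 36 had a mean of at least 1 FPKM. None of the 36 passed the limma threshold, and 6 had an unadjusted p below 0.05, against 25.7% of all tested names. FPKM of such short transcripts from mRNA libraries is no measure of the mature snoRNA. Among the 36, 8 lie inside 1 of the 28 host genes described above. SNORD104, inside SNHG25, was the highest of all 36 rows, at 27.7, 31.0 and 33.7 FPKM in control and 24.1, 26.1 and 24.3 FPKM in knockout libraries, without overlap (log2 fold change −0.30, adjusted p = 0.105), while the SNHG25 row itself lay at 4.62, 2.995 and 2.91 and at 4.22, 1.67 and 2.14 FPKM. SNORA26, inside DANCR, a noncoding host that the naming rule does not take in, was at 8.44, 7.22 and 7.49 against 6.63, 5.34 and 4.91 FPKM (adjusted p = 0.106). These were the lower ones of the 6 rows with an unadjusted p below 0.05. The others, SNORA5A, SNORD69, SNORD83A and SNORD59A, were higher (log2 fold change 0.67, 0.48, 0.43 and 0.68). Their adjusted p from limma was 0.111, 0.111, 0.141 and 0.182, and they lie inside protein-coding hosts.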
